A study of Homo sapiens with 8 samples.

Results

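The death receptor loci were examined for p53 binding in 293T cells, which derive from human embryonic kidney and express the large T antigen of simian virus, known to bind and sequester p53. They comprise FAS on chromosome 10 and the cluster of TRAIL receptor genes on chromosome 8, which holds TNFRSF10B, TNFRSF10C, TNFRSF10D and TNFRSF10A in this order along the chromosome. Members are all peaks that overlap, by at least 1 bp, the window chr10:90740000-90786000 for FAS or the window chr8:22867000-23093000 for the cluster, both on build hg19. This gave 15 of the 97582 listed peaks, 4 for FAS and 11 for the TRAIL receptors, and both windows held a peak in every library. Peaks of the 4 libraries that share at least 1 bp were merged into sites, and the windows held 6 of the 63890 sites.

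Chromatin was precipitated with a p53 antibody after 24 h with doxorubicin (Dox, 0.5 µg/ml) or with phosphate-buffered saline (PBS) as vehicle. Doxorubicin is a topoisomerase poison that breaks DNA and is widely used to activate p53. There were 2 libraries per condition, and in both conditions replicate 1 came from passage 3 and replicate 2 from passage 5, so replicate number and passage cannot be told apart. Dox replicate 1 had 46658 listed peaks, Dox replicate 2 had 16642, PBS replicate 1 had 11304 and PBS replicate 2 had 22978, and read depth is unknown.

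Death receptors are cell surface proteins that start apoptosis from outside the cell. FAS answers to the FAS ligand, and TNFRSF10A (DR4) and TNFRSF10B (DR5) answer to the ligand TRAIL, and all of them use an intracellular death domain to recruit the adaptor FADD and caspase 8. TNFRSF10C (DcR1) has no death domain and TNFRSF10D (DcR2) has a truncated one, so both bind TRAIL as decoys without starting the cascade. FAS and TNFRSF10B are long known as p53 target genes, with p53 response elements described in the first intron of each.

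The FAS sequence that carries such an element is shown because it is the best known p53 site of the gene. RefSeq (GRCh38.p14) gives 3 promoter windows for FAS, each from 250 bases before to 50 after a transcript start, and entries were matched for 1 of the 5 members. They were searched on both strands for the p53 consensus of 20 bases, taken as adjoining decamers with no spacer, with the central tetramer of each intact and at most 2 mismatches elsewhere. The consensus reads the same on either strand. One window on the plus strand, chr10:88991181-88991480 of GRCh38.p14, held a match with 2 mismatches at bases 129 to 148, shown in capitals.

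FAS promoter window: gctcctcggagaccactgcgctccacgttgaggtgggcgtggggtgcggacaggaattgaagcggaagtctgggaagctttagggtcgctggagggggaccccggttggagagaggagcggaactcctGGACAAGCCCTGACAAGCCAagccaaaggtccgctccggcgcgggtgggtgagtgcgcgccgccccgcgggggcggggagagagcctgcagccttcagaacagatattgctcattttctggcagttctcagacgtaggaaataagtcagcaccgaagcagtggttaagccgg

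The other FAS windows held no match by this rule, and 55 of all 35116 promoter windows in the table (0.157%) held one. The match describes the letters of the sequence. Its place relative to the peaks was not computed, since the peaks are on hg19.

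The strongest peak of the death receptor loci lay in the TRAIL receptor cluster and was present in all 4 libraries. From general knowledge of hg19, and not from an annotation used here, it lies at the 5′ end of TNFRSF10B, the gene of the apoptosis-inducing receptor DR5. The merged site was chr8:22925174-22926907. For each peak the authors' caller, MACS2, gives the enrichment of the summit over local background as a fold, on a scale set by each library and its control. Dox replicate 1 had a fold of 9.56 and Dox replicate 2 one of 5.60, and PBS replicates 1 and 2 had folds of 5.23 and 6.31. These values rank the peak within each list and were not compared across lists. The peak ranked at number 75 and number 237 by fold in the lists of Dox replicates 1 and 2, and at number 204 and number 229 in those of PBS replicates 1 and 2. As percentiles of fold within the list, this was 99.8 and 98.6 for Dox replicates 1 and 2, and 98.2 and 99.0 for PBS replicates 1 and 2. The peak thus stood in the top few per cent of every list. On the percentiles, Dox replicate 2 lay between the PBS libraries and Dox replicate 1 above them.

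The significance of the TNFRSF10B peak differed from library to library. The −log10 q was 11.3 and 3.45 in Dox replicates 1 and 2, and 1.26 and 4.79 in PBS replicates 1 and 2. It passed q of at most 0.05, a −log10 q of 1.3, in both Dox libraries and in PBS replicate 2, and missed it narrowly in PBS replicate 1. Of all listed peaks, 3.65% and 4.84% passed this threshold in Dox replicates 1 and 2, and 2.56% and 5.84% in PBS replicates 1 and 2. The 3 peaks at TNFRSF10B were the only ones of the 15 that passed. In the deposited tables of peaks matched between the replicates of a condition, the irreproducible discovery rate (IDR), the expected share of irreproducible pairs among those ranked as high or higher, was 4.22e-06 for the Dox pair and 0.000917 for the PBS pair at this site. The Dox pair ranked at number 129 of 8784 pairs and the PBS pair at number 230 of 6244. An IDR of at most 0.05 was reached by 27.5% of all Dox pairs and 15.0% of all PBS pairs.

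The position of the summit at TNFRSF10B varied little. It lay at 22926155 and 22926164 in Dox replicates 1 and 2, and at 22926162 and 22926155 in PBS replicates 1 and 2, a span of 9 bp over the 4 libraries. Among the 3840 sites with a peak in all 4 libraries, the median span of the summits of the strongest peak per library was 209.0 bp, and 0.547% of the sites, 21 in number, had a span of 9 bp or less. Among the 108 sites at or above the percentile 98 of fold in all 4 lists, a limit set after the values were seen, the median span was 49.5 bp and 4 sites (3.70%) had a span of 9 bp or less. The extent of the peak varied more. It was 1670 bp and 884 bp wide in Dox replicates 1 and 2, and 684 bp and 787 bp in PBS replicates 1 and 2. The median width over the lists was 281 bp to 288 bp. The Dox peak was wider by 986 bp within replicate 1 and by 97 bp within replicate 2. With 1 library of each condition per replicate number and read depth unknown, a difference in width between conditions was not tested. The peak ran from 22925174 to 22926843 in Dox replicate 1 and from 22926024 to 22926907 in Dox replicate 2. It ran from 22925665 to 22926348 in PBS replicate 1 and from 22926026 to 22926812 in PBS replicate 2, so the peak of Dox replicate 1 reached beyond that of PBS replicate 1 at both ends.

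**Figure D1:**
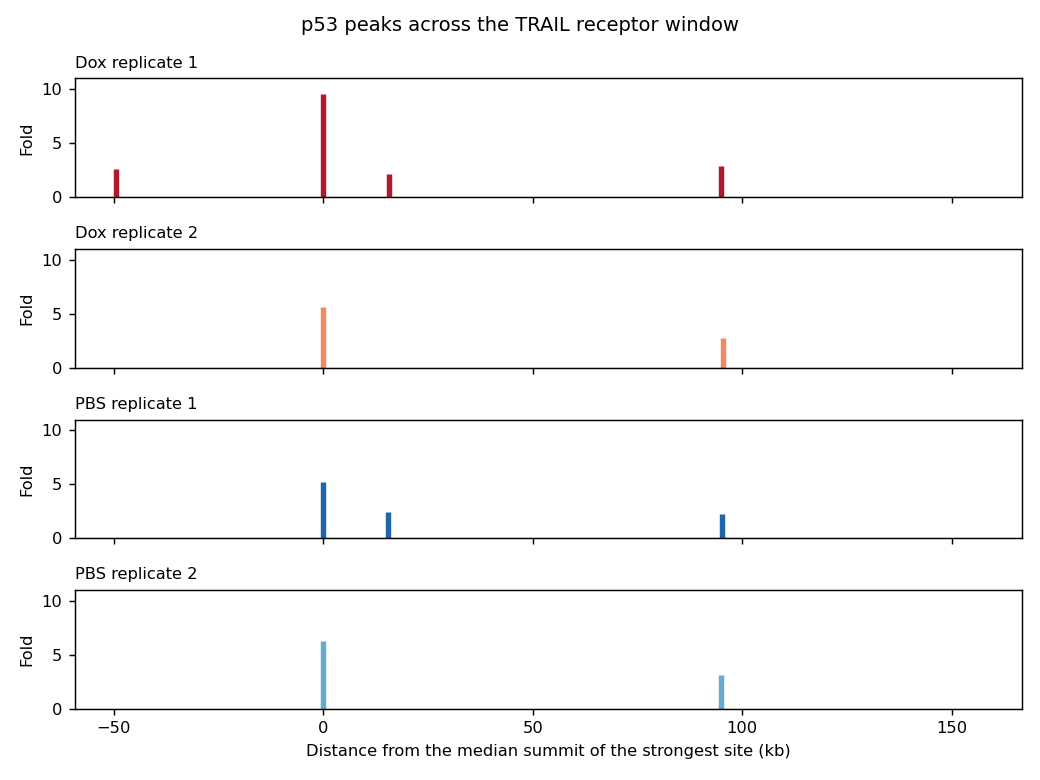
Peaks in the TRAIL receptor window, with a panel per library, by distance in kb of the peak summit from the median summit of the strongest site (x axis) and fold enrichment (y axis, linear, on each library's own scale). The tall bar at 0 is the TNFRSF10B peak, between 5.60 and 9.56 in the Dox libraries and between 5.23 and 6.31 in the PBS libraries, and the weaker bar to its far right is the other site found in all 4 libraries.

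The other site of the cluster with a peak in all 4 libraries had a lower fold than TNFRSF10B in every list. It was chr8:23021025-23021554, which from general knowledge of hg19 lies at the 5′ end of TNFRSF10D, the gene of the decoy receptor DcR2. The fold was 2.92 and 2.78 in Dox replicates 1 and 2, and 2.27 and 3.10 in PBS replicates 1 and 2. As percentiles of fold within the list these were 76.1 and 49.3 for Dox replicates 1 and 2, and 15.1 and 65.9 for PBS replicates 1 and 2. The peak was thus near or above the middle of the list in 3 libraries and in the lower part of it in PBS replicate 1, and the conditions overlapped. The −log10 q was 0 in all 4 libraries, that is, q was 1. The summits lay at 23021180 and 23021460 in Dox replicates 1 and 2, and at 23021210 and 23021171 in PBS replicates 1 and 2, a span of 289 bp, and 60.6% of the sites found in all 4 libraries had a span no larger. The matched pair at this site had an IDR of 0.43 in Dox and 0.015 in PBS, so that only the PBS pair reached 0.05. Both peaks of the Dox pair had a −log10 p above 2 (2.83 and 2.43), whereas in the PBS pair it was 1.82 for replicate 1 and 3.33 for replicate 2.

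Both remaining sites of the cluster were found in replicate 1 libraries and in no replicate 2 library. The site chr8:22941673-22941959 had a peak of 2.18-fold in Dox replicate 1 and of 2.39-fold in PBS replicate 1. By general knowledge of hg19 it lies between the 5′ end of TNFRSF10B and TNFRSF10C, whose limits were not checked against an annotation. These peaks stood at the percentiles 23.2 and 26.6 of fold in their lists, and 2.29% of all sites had this pattern of libraries. The site chr8:22876608-22876979, near the 3′ end of TNFRSF10B, had a peak of 2.62-fold in Dox replicate 1 alone, at the percentile 60.1. Of all sites, 48.5% were found in Dox replicate 1 alone, which has the longest list. Neither site had a matched pair, which needs a peak in both replicates of a condition.

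No peak was listed in any library over 79.1 kb between the site at 22941959 and the one at 23021025, nor over 71.4 kb from the end of the TNFRSF10D site at 23021554 to the end of the window. From general knowledge of hg19, TNFRSF10C, the decoy receptor DcR1, falls in the longer of these stretches, and TNFRSF10A, the apoptosis-inducing receptor DR4, in the shorter. No peak at the calling threshold of p under 0.05 was listed in either stretch. Whether a peak touched either gene depends on gene limits, which were not checked against an annotation. Absence from these lists does not show absence of binding.

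The FAS window held 1 peak in each library, but at different positions. Dox replicate 1 had a peak at chr10:90750111-90750552 and PBS replicate 2 one at chr10:90750460-90750717, which shared 93 bp. Dox replicate 2 had a peak at chr10:90750964-90751209 and PBS replicate 1 one at chr10:90750910-90751149, which shared 186 bp. Each of the 2 FAS sites thus held 1 Dox and 1 PBS library, of unlike replicate number. Between them lay 192 bp without a peak, and by general knowledge of hg19 both lie at the 5′ end of FAS. Summits of the paired libraries lay 159 bp apart at the site of lower coordinates and 22 bp apart at the other, whereas the Dox summits lay 635 bp apart and the PBS summits 454 bp apart. No matched pair was listed for FAS in either condition, and in neither condition did the peaks of the replicates share a base. The pattern of the site of lower coordinates, Dox replicate 1 with PBS replicate 2, was seen in 4.96% of all sites, and that of the other, Dox replicate 2 with PBS replicate 1, in 0.365%.

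No FAS peak passed q of at most 0.05, and their ranks varied widely. The fold was 2.48 and 2.74 in Dox replicates 1 and 2, and 3.53 and 2.14 in PBS replicates 1 and 2. The percentile of fold within the list was 53.5 and 43.8 in Dox replicates 1 and 2, and 89.0 and 6.63 in PBS replicates 1 and 2, so the Dox values lay between the PBS values. The −log10 p was 1.85 and 2.83 in Dox replicates 1 and 2, and 3.58 and 1.78 in PBS replicates 1 and 2. The −log10 q was 0 in every library. When peaks up to 200 bp apart were merged, both FAS sites became 1 site present in all 4 libraries, chr10:90750111-90751209, a pattern that 6.66% of all sites had under that setting and 6.01% with the merging by shared bases.

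**Figure D2:**
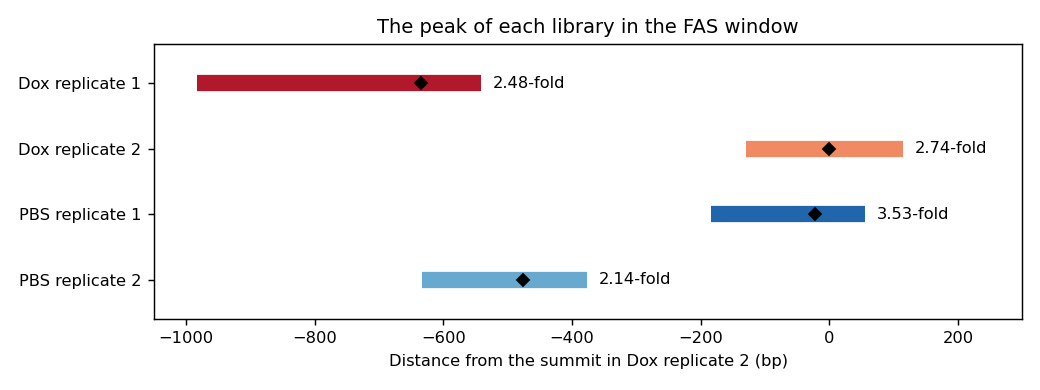
Extent (bar) and summit (diamond) of the FAS peak of each library, by distance in bp from the summit in Dox replicate 2, with its fold enrichment written beside it. Dox replicate 2 and PBS replicate 1 overlap on the right, with summits 22 bp apart, and Dox replicate 1 and PBS replicate 2 overlap on the left.

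The number of peaks in the death receptor windows did not separate doxorubicin from vehicle. The TRAIL receptor window held 4 and 2 peaks in Dox replicates 1 and 2, and 3 and 2 peaks in PBS replicates 1 and 2. Dox libraries averaged 3.0 ± 1.41 peaks and PBS libraries 2.5 ± 0.707 peaks (SD, n = 2 each), and the difference of 0.5 peaks was smaller than the spread within Dox (two-sided exact permutation p = 1, and 2 libraries against 2 allow no p below 0.333). Within replicate 1 the difference was 1 peak and within replicate 2 it was 0. The direction depended on single libraries: without Dox replicate 1 the difference was -0.5, and without PBS replicate 2 it was 0. The difference was also -1 when the same number of peaks, 11304, was taken from each list by p. In Dox replicate 1 that cut fell among peaks of equal p, which were kept by their order in the list. The TNFRSF10D peak was dropped at this tie, so the size of this difference rests on that order. The FAS window held 1 peak in each of the 4 libraries, a difference of 0 (two-sided exact permutation p = 1). Of the 6 sites, 0 were found in both Dox libraries and neither PBS library, a pattern of 3.11% of all sites, and 0 in both PBS libraries and neither Dox library, a pattern of 0.928% of all sites. With 6 sites, neither count can be told from those shares.

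Peaks were also listed in many other stretches of these lengths. Of tiles of the genome as long as the FAS window, 29.0% and 14.6% held at least 1 peak in Dox replicates 1 and 2, and 10.9% and 19.5% in PBS replicates 1 and 2. Tiles as long as the TRAIL receptor window held at least as many peaks as it did in 26.7% and 23.0% of cases in Dox replicates 1 and 2, and in 10.1% and 30.5% in PBS replicates 1 and 2. Tiles were not matched on gene content. Read against these shares, the number of peaks was not rare in any single list for either window, whereas the TNFRSF10B peak ranked high in every list. The shares are for 1 list at a time, and no share of tiles with a peak in every list is given.

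**Figure D3:**
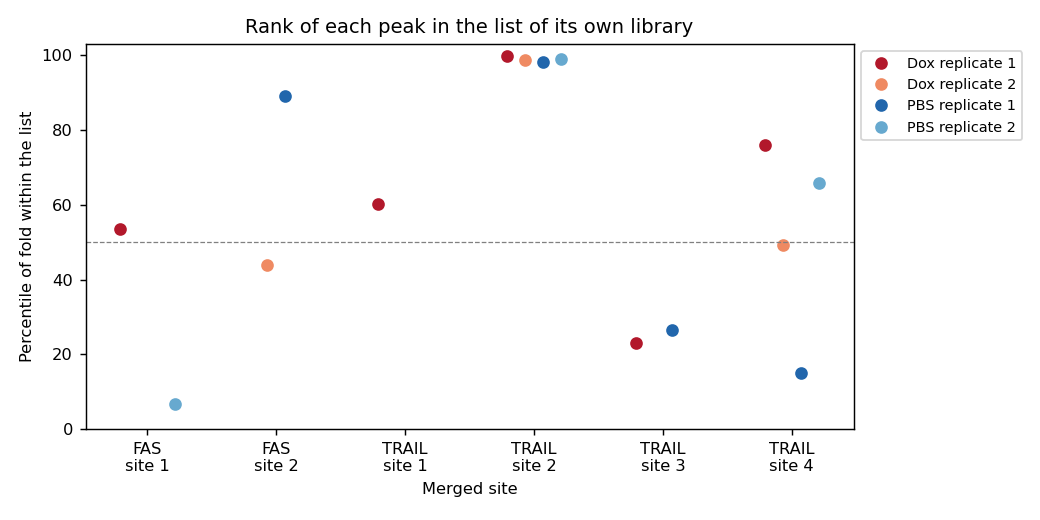
Percentile of fold enrichment within the list of each library (y axis) for the 6 merged sites (x axis), numbered along the chromosome within each window, with a point per library that has a peak and a dashed line at the middle of the list. The TNFRSF10B site (TRAIL site 2) is at 98.2 or above in all 4 libraries, while the points of every other site lie at 89.0 or lower.

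Other p53 target genes were examined in the same lists for scale, each in a window of the gene and 10 kb on either side that was placed from general knowledge of hg19. The strongest peak of each window was divided by the median fold of its list, and strongest peaks of windows with more peaks have more chances to be high. At TNFRSF10B this ratio was 3.87 and 2.01 in Dox replicates 1 and 2, and 1.98 and 2.21 in PBS replicates 1 and 2. At CDKN1A, the cell cycle inhibitor p21, it was 4.81 and 4.78 in Dox replicates 1 and 2, and 4.5 and 4.64 in PBS replicates 1 and 2. At MDM2, the ubiquitin ligase that degrades p53, it was 4.63 and 3.15 in Dox replicates 1 and 2, and 2.44 and 3.27 in PBS replicates 1 and 2. The TNFRSF10B peak was thus lower than the strongest CDKN1A and MDM2 peaks in each of the 4 lists, at 80.4% and 42.1% of the CDKN1A fold in Dox replicates 1 and 2, and at 44.1% and 47.7% in PBS replicates 1 and 2.

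The same ratio was taken for genes of the mitochondrial pathway of apoptosis. At BBC3, which encodes the BH3-only protein PUMA, the ratio was 3.28 and 2.11 in Dox replicates 1 and 2, and 2.17 and 2.12 in PBS replicates 1 and 2. At BAX, a pore-forming protein of the mitochondrial membrane, it was 2.43 and 2.11 in Dox replicates 1 and 2, and 1.56 and 1.76 in PBS replicates 1 and 2. At PMAIP1, which encodes the BH3-only protein NOXA, it was 1.48 and 0.886 in Dox replicates 1 and 2, and 1.05 and 1.09 in PBS replicates 1 and 2, and no PMAIP1 peak passed q of at most 0.05. FAS had 1.0 and 0.985 in Dox replicates 1 and 2, and 1.34 and 0.751 in PBS replicates 1 and 2. The ratios of FAS and PMAIP1 thus lay on both sides of 1, the median peak of a list. The strongest peaks were not always the same site: their summits spanned 56 bp over the 4 libraries at CDKN1A and 91 bp at MDM2, but 1124 bp at BBC3, 5031 bp at PMAIP1 and 10006 bp at BAX. These values are given side by side, and differences between loci were not tested.

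**Figure D4:**
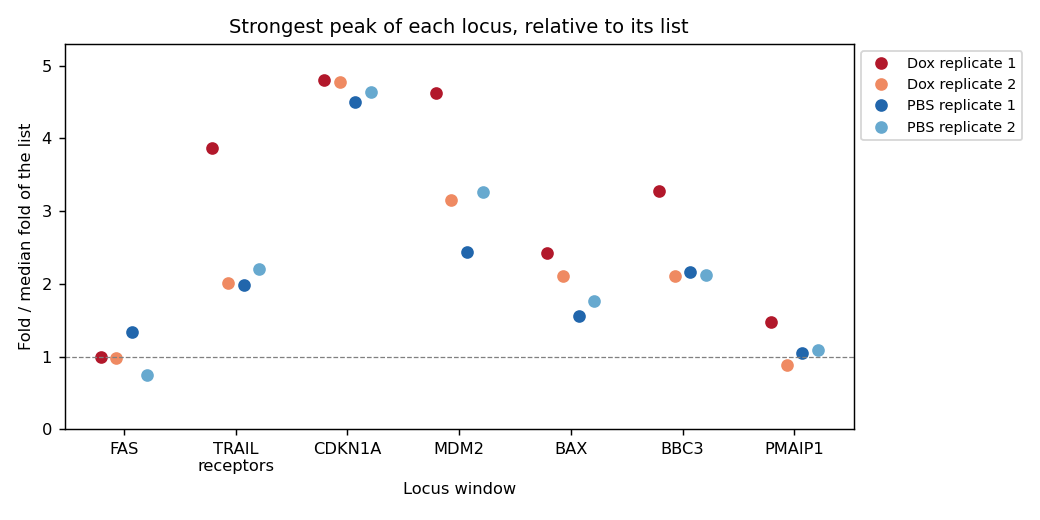
Fold enrichment of the strongest peak in each locus window divided by the median fold of the list (y axis, linear), with a point per library and a dashed line at 1, the median peak of a list. FAS lies between 0.751 and 1.34, PMAIP1 between 0.886 and 1.48, the TRAIL receptor window (its TNFRSF10B peak) lies between 1.98 and 3.87, and CDKN1A lies between 4.5 and 4.81.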

How the data were processed

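The labels name 8 samples, of which the 4 p53 ChIP libraries were analysed, without the 4 input samples. The submitters' processing notes name BWA, MACS2 and build hg19, and their versions and settings were not stated. The authors deposited 1 peak list per library, called separately at p under 0.05 per the peak names, with a fold enrichment ratio, the p-value and q-value as −log10, and the summit position of each peak. For each condition the authors deposited a table of peaks matched between replicates, with the IDR and a local IDR, both a fraction between 0 and 1, the latter not used.

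Positions are given 1-based. Peaks sharing at least 1 bp were merged into sites, percentiles and ranks were taken within each list, and tiles of each window's length were laid from position 1 of each chromosome to its last listed peak. Mean peak numbers were tested by exact permutation of the libraries, two-sided. Whether the libraries of a condition came from separate cultures is not stated beyond the passage, so p-values measure only the spread between these samples. Merging and counting were tested on simulated data. All peaks in the windows are described. The members, loci and lists were chosen with earlier results of these data known, and the windows of the loci for scale were set by hand without an annotation. Other genes of the death receptor pathway were not analysed here, for want of an hg19 annotation. The tools were Python 3.11.15 with pandas 2.3.3, numpy 2.4.6, matplotlib 3.10.9 and scipy 1.17.1. The alternatives were a q limit, a −log10 p of at least 2, equal list length, a majority of the peak inside the window, a window wider by 10 kb on each side, merging within 200 bp, an IDR limit, a replicate block and leaving out each library.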

Additional observations from a re-analysis of the deposited data

Results flagged for a closer look

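At both sites of the TRAIL receptor cluster with a peak in all 4 libraries, the percentile of fold within the list was higher in Dox than in PBS in replicate 1 and lower in replicate 2. At TNFRSF10B the difference, Dox minus PBS, was 1.67 percentile points within replicate 1 and -0.424 within replicate 2. At TNFRSF10D it was 61.0 points within replicate 1 and -16.6 within replicate 2. With percentiles of −log10 p in place of fold, the differences at TNFRSF10D were 41.8 and -26.9 points, of the same directions. With 1 library of each condition per replicate number, whether the numbers differ was not tested. PBS replicate 1 has the shortest list, and its part in these values was not tested. By rank of fold, the TNFRSF10D peak stood at number 10460 of 46658 in Dox replicate 1 and number 9437 of 11304 in PBS replicate 1. Within replicate 1 the direction by rank was thus the reverse of that by percentile, but ranks in lists of such unlike length are not on 1 scale. In replicate 2 the peak stood at number 7885 of 16642 in Dox and number 7466 of 22978 in PBS, the direction of the percentiles. At TNFRSF10B ranks and percentiles gave the same direction. With equal list length, the TNFRSF10D site kept its peak in PBS replicate 1, whose full list of 11304 peaks set that length and could lose none. It lost its peak in Dox replicate 1, where the peak ranked at number 9018 by p, in a tie that ran across the cut. Tied peaks were kept by their order in the list, so the contrast follows from the procedure.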

How the results depend on the processing

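The difference in peak number, Dox minus PBS, passed p of 0.05 under none of the alternatives tried, and 2 libraries against 2 allow no such p. For the TRAIL receptor window it was 0.5 and became 1 with a −log10 p of at least 2 and -1 with equal list length, for which the cause was not tested. The value of -1 includes the loss of a peak of Dox replicate 1 at a tie in p, broken by list order. The difference ranged from -0.5 to 1.5 when each library was left out. For FAS it was 0 and became -0.5 with the window widened by 10 kb, where PBS replicate 1 gained a peak. With the replicate block, in which labels were permuted within replicate number, the differences stayed at 0.5 and 0. The shared numbers mark a passage and not a stated pairing. Over all sites, the presence differences between replicates in Dox and in PBS correlated at 0.213, and 2 pairs do not settle whether numbers pair the libraries. At q of at most 0.05, 1 site remained, at TNFRSF10B, and 0 were in all 4 libraries, since PBS replicate 1 missed the limit. With equal list length, 1 site was in all 4 libraries, since the TNFRSF10D peak of Dox replicate 1 was dropped at that tie. Sites in every Dox library and no PBS library ranged from 0 to 1 over the left-out libraries, the 1 arising without Dox replicate 2, when Dox replicate 1 stood alone for the condition. Limiting matched pairs to an IDR of 0.05 left 1 for Dox and 2 for PBS. Ranked by p in place of fold, an alternative chosen after seeing the data, the FAS peaks of Dox replicates 1 and 2 moved to the percentiles 33.3 and 61.5, and the TNFRSF10B peak of PBS replicate 1 to 97.0. Tiles laid from another start, also chosen after seeing the data, changed no share beyond its counting interval. With depth unknown, an absent peak means only that none passed the caller's threshold.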
